A study of Mus musculus with 12 samples.

Results

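Red blood cells are built in the bone marrow, where the transcription factors GATA1 and KLF1 drive a precursor to make haemoglobin, the enzymes that make haem, and the proteins of the red cell membrane. The precursor then sheds its nucleus, and the young red cell, the reticulocyte, carries leftover globin messenger RNA into the blood. A tissue sample that holds blood therefore holds globin RNA. Within this lineage the RNA of GATA1, KLF1 and the erythropoietin receptor belongs mainly to nucleated precursors. Cells outside the lineage use GATA1 and the erythropoietin receptor too.

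The red cell lineage was read here from 9 genes: the alpha globins Hba-a1 and Hba-a2, the beta globin Hbb-b1, the haem synthesis enzyme Alas2, the membrane anion exchanger Slc4a1 (band 3), the alpha globin chaperone Ahsp, the transcription factors Klf1 and Gata1, and the erythropoietin receptor Epor. The genes were chosen by name, with earlier results of these data known, and 8 of the 9 were found among 23951 genes of the table. Ahsp was not analysed here. With a mean level of 0.5 FPKM or more (read fragments scaled to transcript length and library size) required for testing, 7 of the 9 entered the test among 16276 genes, and Hba-a2 did not.

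RNA of whole cochleae from mice on a mixed 129S2/SvPas:C57BL/6 background was sequenced in 12 libraries, 3 in each of 4 groups. These were wild type mice at 5 months (animal codes E1, E3 and E4), Dusp1-/- mice at 5 months (E7, F18 and F19), wild type mice at 8 months (F1, F10 and F12) and Dusp1-/- mice at 8 months (F5, F6 and F27). The groups are called WT and KO after their labels, and no treatment is given for any of them. Dusp1 encodes a phosphatase that switches off stress-activated kinases, and the comparison of KO with WT asks what its loss does to the cochlear transcriptome. The labels do not say whether the animals of a group came from separate litters, so p-values measure the spread between these libraries.

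Dusp1 itself went against the labels. Its level was 60.8, 47.6 and 29.5 FPKM in the WT libraries at 5 months and 61.9, 81.5 and 75.3 FPKM in the libraries labelled KO. At 8 months it was 43.0, 38.3 and 38.6 FPKM in WT and 55.6, 73.7 and 57.1 FPKM in KO. Every library labelled KO thus lay above every WT library of its age, where a lower level would be looked for, so each direction below is that of the labels. The sources used here do not say which part of the gene was deleted, and RNA from outside it would still be counted. The cochlear genes Coch and Otos, made by the fibrocytes of the inner ear, had group means of 2400 to 2614 and 1972 to 2317 FPKM. Read numbers are not known, and FPKM summed to between 501185 and 583700 per library.

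The upstream sequences of the lineage's genes are shown because GATA1 and KLF1, which act on red cell genes in precursors, are themselves among the genes measured. The part of these factors in the levels of these libraries was not tested. The 250 bases before the RefSeq start site (build GRCm38.p6) are given 5′ to 3′ on the gene's strand. Capitals mark AGATAA or AGATAG or TGATAA or TGATAG, the letters GATA factors bind, and CACCC, the core of the letters KLF factors bind, on either strand.
Hba-a1 (chr11:32283422-32283671, plus strand): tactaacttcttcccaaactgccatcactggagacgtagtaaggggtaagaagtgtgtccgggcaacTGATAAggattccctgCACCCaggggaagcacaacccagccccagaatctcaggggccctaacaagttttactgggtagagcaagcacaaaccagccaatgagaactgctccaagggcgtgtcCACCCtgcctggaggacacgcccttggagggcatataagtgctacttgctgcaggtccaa
Hbb-bs (chr7:103827929-103828178, minus strand): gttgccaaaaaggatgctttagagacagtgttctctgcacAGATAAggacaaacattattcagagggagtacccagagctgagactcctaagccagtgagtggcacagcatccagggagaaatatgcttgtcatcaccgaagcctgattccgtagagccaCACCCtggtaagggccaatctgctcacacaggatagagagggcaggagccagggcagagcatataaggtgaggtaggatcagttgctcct
Hbb-bt (chr7:103813924-103814173, minus strand): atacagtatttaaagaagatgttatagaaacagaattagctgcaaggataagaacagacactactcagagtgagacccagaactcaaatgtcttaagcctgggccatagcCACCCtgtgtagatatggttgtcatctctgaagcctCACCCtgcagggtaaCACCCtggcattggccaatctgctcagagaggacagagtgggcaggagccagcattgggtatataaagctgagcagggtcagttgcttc
Alas2 (chrX:150547167-150547416, plus strand): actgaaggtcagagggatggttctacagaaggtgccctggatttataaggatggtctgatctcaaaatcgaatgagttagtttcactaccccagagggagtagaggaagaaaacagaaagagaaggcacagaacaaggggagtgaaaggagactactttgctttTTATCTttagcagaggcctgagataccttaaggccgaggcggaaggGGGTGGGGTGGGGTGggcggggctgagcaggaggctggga
Klf1 (chr8:84901732-84901981, plus strand): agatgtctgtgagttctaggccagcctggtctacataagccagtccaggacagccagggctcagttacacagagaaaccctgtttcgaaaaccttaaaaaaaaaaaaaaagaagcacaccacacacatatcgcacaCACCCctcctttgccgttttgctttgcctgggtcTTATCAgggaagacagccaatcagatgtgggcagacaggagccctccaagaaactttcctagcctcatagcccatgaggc
Gata1 (chrX:7967911-7968160, minus strand): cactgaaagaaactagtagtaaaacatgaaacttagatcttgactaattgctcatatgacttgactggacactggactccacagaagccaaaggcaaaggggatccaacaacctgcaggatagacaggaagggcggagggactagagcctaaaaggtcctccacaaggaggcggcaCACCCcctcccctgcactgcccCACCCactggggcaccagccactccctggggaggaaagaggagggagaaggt
Epor (chr9:21963577-21963826, minus strand): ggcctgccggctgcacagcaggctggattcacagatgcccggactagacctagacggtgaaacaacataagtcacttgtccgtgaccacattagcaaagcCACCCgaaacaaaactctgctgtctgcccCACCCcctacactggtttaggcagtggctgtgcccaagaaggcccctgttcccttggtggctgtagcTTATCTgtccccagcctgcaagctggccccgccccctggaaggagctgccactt
A GATA match stood in 6 of the 8 promoters of members and adult globins that the reference table holds, and a CACCC match in 8 of 8. Over 27025 promoters of the same length, 27.1% held a GATA match and 51.3% held CACCC. Hba-a2 is among the 8 but is not printed. Its window nearly repeats that of Hba-a1, with the GATA match 186 bases before the start in place of 183, so they are not separate cases. The match of Alas2 began 86 bases before the start, that of Klf1 80 bases and that of Epor 54 bases before it. Gata1 and Hbb-bt had none in this window. These matches describe letters and were not tested for binding.

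The beta globin Hbb-b1 was the most abundant gene of the lineage in these cochleae. At 5 months it stood at 1933, 1024 and 684 FPKM in WT and at 3605, 2787 and 1889 FPKM in KO. At 8 months it stood at 1145, 1161 and 3589 FPKM in WT and at 3498, 1600 and 1187 FPKM in KO. The WT and KO values overlapped at both ages, since F19 lay below E1 at 5 months and F12, a WT library, was the highest at 8 months. Among all genes of a library Hbb-b1 ranked between place 4 (F12) and place 77 (E4).

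The alpha globin Hba-a1 had the same 3 libraries on top (F12, F5 and E7). At 5 months it stood at 809, 352 and 259 FPKM in WT and at 1344, 1062 and 761 FPKM in KO. The 8-month levels were 379, 509 and 1529 FPKM in WT and 1441, 628 and 472 FPKM in KO. Here, too, the groups overlapped at both ages. Hba-a2 read 0.00704 to 0.0169 FPKM in every library, and this value does not measure that gene. In the deposited annotation (mm9) both symbols are placed at both alpha globin loci, at chr11:32183672-32184486 and chr11:32196489-32197303 for Hba-a1, and 1112 of the 1118 exon bases of Hba-a1 are exon bases of Hba-a2 too. The exons of Hba-a1 at the 2 loci differ at 1 of 559 bases, so the split between the symbols is that of the software and Hba-a1 stands for both genes. The authors' group FPKM of Hba-a1 was also 1.61 to 1.66 times as high in their comparisons of genotypes as in those of ages, and the library values have the scale of the latter.

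Hbb-b1 carries a like uncertainty. It shares 630 of its 631 exon bases with Hbb-bs, at chr7:110975046-110976443 on the minus strand, and the levels of the pair cannot be told apart. Hbb-bs held 4.5 to 9.73% of the FPKM of both. The neighbouring adult beta globin Hbb-bt has a place of its own, at chr7:110961038-110962437, but its coding sequence differs from that of Hbb-bs at 1 of 441 bases. Hbb-b1 belongs to a beta globin haplotype of 129 mice, and Hbb-bs and Hbb-bt to that of C57BL/6, and both strains contributed to these animals. All adult globins together made up 0.216% (E4) to 1.19% (F12) of a library's FPKM, and beta globin FPKM was 2.99 to 3.88 times alpha globin FPKM. Both rest on the lower of the authors' scales of Hba-a1 named above, and on the higher scale beta over alpha would be lower. The ratio of the chains moved far less than their levels.

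Alas2, on chromosome X, encodes the red cell form of the first enzyme of haem synthesis. It read 34.5, 17.7 and 11.6 FPKM in WT at 5 months against 75.2, 50.9 and 41.3 FPKM in KO, and these did not overlap. The levels at 8 months were 19.02, 17.6 and 69.2 FPKM in WT and 86.0, 22.2 and 19.05 FPKM in KO. A single library in each 8-month group (F12 and F5) stood high.

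Slc4a1, which exchanges chloride for bicarbonate across the red cell membrane, had the widest range of the 7 genes tested, 171-fold between its highest and its lowest library. At 5 months it read 3.13, 0.744 and 0.270 FPKM in WT and 46.4, 12.2 and 23.3 FPKM in KO. At 8 months it read 1.02, 0.615 and 21.4 FPKM in WT and 44.3, 2.72 and 0.739 FPKM in KO. The groups did not overlap at 5 months and did at 8 months.

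Klf1, which switches on adult beta globin, read 1.07, 0.643 and 0.284 FPKM in WT and 9.46, 2.60 and 4.59 FPKM in KO at 5 months. Its 8-month levels were 0.972, 0.719 and 6.23 FPKM in WT and 10.2, 1.31 and 0.520 FPKM in KO. Gata1, which precursors of red cells, megakaryocytes and mast cells need, showed the same split of libraries. It read 0.685, 0.295 and 0.103 FPKM in WT and 10.3, 2.64 and 2.95 FPKM in KO at 5 months. At 8 months it read 0.864, 0.366 and 3.28 FPKM in WT and 8.03, 0.697 and 0.434 FPKM in KO. Epor, through which erythropoietin keeps precursors alive, varied less, over a 20.2-fold range. It read 0.870, 0.589 and 0.350 FPKM in WT and 7.08, 2.43 and 2.78 FPKM in KO at 5 months, and 0.889, 0.656 and 3.01 FPKM in WT and 5.30, 0.985 and 0.732 FPKM in KO at 8 months. All 3 genes were apart at 5 months, and at 8 months F12 and F5 were the highest libraries of their groups for each of them.

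**Figure D1:**
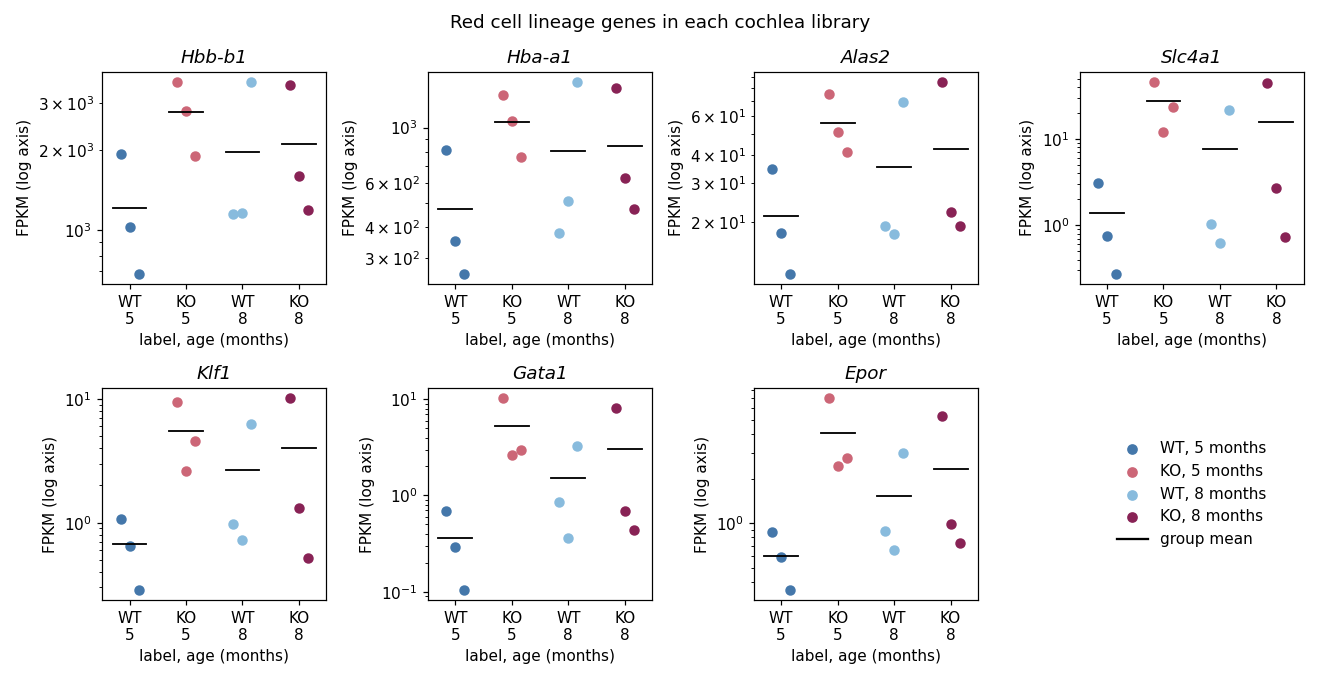
FPKM (log axis) of the 7 tested genes in each of the 12 libraries, by label and age in months, with the group mean as a bar. E7 and F5 are among the 3 highest libraries for all 7 genes, and KO and WT values are apart at 5 months for Alas2, Slc4a1, Klf1, Gata1 and Epor.

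E7 and F5 were among the 3 highest libraries for 7 of 7 genes, and F12 for 6 of 7. F19 was among the 3 highest for 1 gene, and the other 8 libraries for 0. F18 was among the 5 highest for 7 of 7 genes. Over the 12 libraries, Pearson's r between log2 levels of 2 genes ran from 0.877 (Hba-a1 with Gata1) to 0.997 (Gata1 with Epor). The points share their libraries and group differences, so this describes how the genes moved and is no independent count of evidence.

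KO was compared with WT in 1 limma fit of log2(FPKM + 0.5) over all 16276 genes, so that each log2 change is on that scale and understates the change of genes with low levels. At 5 months all 7 genes tested were higher in the libraries labelled KO, but 0 of 7 passed an adjusted p (Benjamini-Hochberg) of 0.05, against 0.0676% of all genes tested. The log2 change was 1.27 ± 0.56 (SE) for Hbb-b1 and 1.29 ± 0.60 for Hba-a1, with adjusted p of 0.268 and 0.289. It was 1.47 ± 0.67 for Alas2, 1.95 ± 0.63 for Epor and 2.27 ± 0.89 for Klf1, with adjusted p of 0.28, 0.2 and 0.23. It was 2.56 ± 0.85 for Gata1 and 3.997 ± 1.40 for Slc4a1, with adjusted p of 0.203 and 0.215. The median of the 7 was 1.95, beside -0.03 over all genes.

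At an unadjusted p under 0.05, 5 of the 7 (Hbb-b1, Slc4a1, Klf1, Gata1 and Epor) were higher in KO at 5 months, against 8.23% of all genes. The values of KO lay wholly above those of WT for 5 of the 7 (Alas2, Slc4a1, Klf1, Gata1 and Epor), as for 11.3% of all genes tested. An exact two-sided permutation test, 3 libraries against 3, gave p = 0.1 for these 5 and 0.2 for Hba-a1 and Hbb-b1. The value for the 5 is the smallest such a design allows. It follows from their lack of overlap, so it restates that count and is no further evidence. The 7 genes were chosen with earlier results of these data known, so the counts above describe them and do not test them as a set. Without E7 the median change was 1.52. The animal codes carry a letter (E or F, of unstated meaning), and E7 is the only KO library of that age with the letter of the WT libraries. It was the highest of the 4 E libraries for all 7 genes, and E7 alone against WT gave a median of 2.81, a value that rests on 1 library.

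At 8 months the same 7 genes differed by less than their standard errors. In limma 0 of 7 passed the adjusted threshold, against 0.0123% of all genes, and 0 of 7 had an unadjusted p under 0.05 in the direction of KO, against 2.21%. The values were apart for 0 of 7, against 4.11% of all genes. The log2 change ran from 0.16 ± 0.56 (Hbb-b1) to 0.75 ± 1.40 (Slc4a1), the median was 0.24, and the adjusted p were 0.991 to 0.999. The sign rested on single libraries: the median was -0.47 without F5 and 0.84 without F12, the high KO and the high WT library of that age, and it was -0.08 without F1 and -0.10 without F10.

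**Figure D2:**
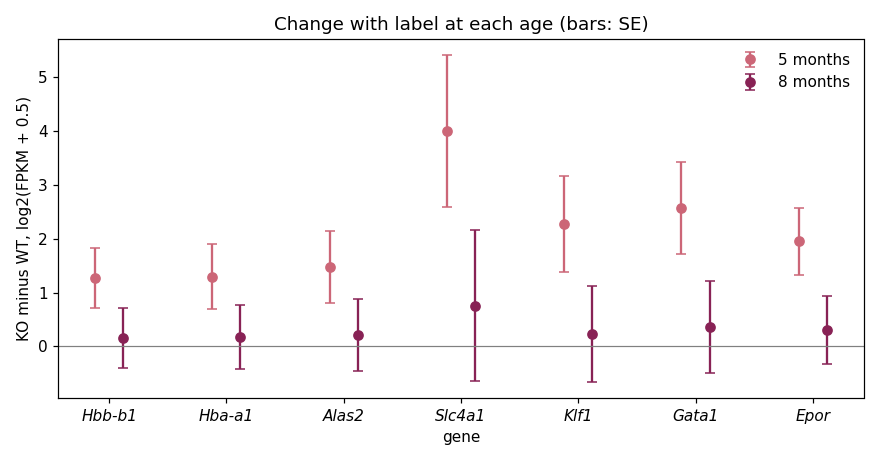
KO minus WT in log2(FPKM + 0.5) for the 7 tested genes, with SE bars from the limma fit, at 5 and at 8 months. All 7 points lie between 1.27 and 3.997 at 5 months and between 0.16 and 0.75 at 8 months, and none passed the adjusted threshold.

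The change from WT to KO was lower at 8 than at 5 months for 7 of 7 genes, with a median difference of -1.64, from -1.11 for Hbb-b1 to -3.24 for Slc4a1. In limma 0 of 7 passed the test of that difference (adjusted p = 0.876 for each), against 0.00614% of all genes, so the ages were not shown to differ. At an unadjusted p under 0.05 it was also 0 of 7, beside 761 of 16276 genes in either direction. From 5 to 8 months the median change of the 7 was 0.72 in WT, where 0.0123% of all genes were called, and -0.93 in KO, where 0% were. In limma 0 of 7 passed in either. At an unadjusted p under 0.05 it was also 0 of 7 in each, beside 1274 of 16276 genes in WT and 2049 in KO. WT libraries at 5 months carry E codes and those at 8 months F codes, so that code letter and age cannot be told apart within WT.

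Relative to Hbb-b1 in the same library, some genes varied little and others widely. Per 1000 FPKM of Hbb-b1, Hba-a1 stood at 331 to 439 FPKM over the 12 libraries and Alas2 at 13.9 to 24.6 FPKM. Slc4a1 stood at 0.396 to 12.9 FPKM on that scale, a 32.5-fold range. Klf1 (0.415 to 2.92 FPKM), Gata1 (0.151 to 2.87 FPKM) and Epor (0.450 to 1.96 FPKM) ranged over 7.04-fold, 18.99-fold and 4.36-fold. These wide ranges include levels below 1 FPKM, whose error is not known. Before division, E4 read 0.103 FPKM for Gata1, 0.270 for Slc4a1, 0.284 for Klf1 and 0.350 for Epor. The ratio of Gata1 was highest in E7, F5, F19 and F18, in that order, and lowest in E4. The WT library F12 came next, at 0.915 FPKM per 1000 beside 0.948 in F18. The WT library F1 (0.755) lay above the KO libraries F6 (0.4355) and F27 (0.366).

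At 5 months the ratios of Alas2, Slc4a1, Klf1, Gata1 and Epor to Hbb-b1 were higher in every KO than in every WT library. This held for 0.971% of all genes on this scale. Hbb-b1 itself was higher in KO at that age (log2 change of 1.27), which lowers the ratio of any gene that did not change. For levels not divided by Hbb-b1 the share was 11.3%. The ratio of the globin Hbb-bt was also higher in every KO library, at a mean of 285 FPKM per 1000 in KO and 229 in WT. The part of read assignment between these like sequences, or of the strain haplotypes, in that ratio was not tested. The ratio of Slc4a1 averaged 9.85 FPKM per 1000 in KO and 0.913 in WT. That of Hba-a1 overlapped, at 386 and 380 FPKM per 1000. At 8 months the ratios of all these genes, Hbb-bt and Hba-a1 included, overlapped, against 0.129% of all genes with every KO ratio above every WT ratio. In RNA of a whole tissue, more cells of a type and more RNA in each cell cannot be told apart.

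**Figure D3:**
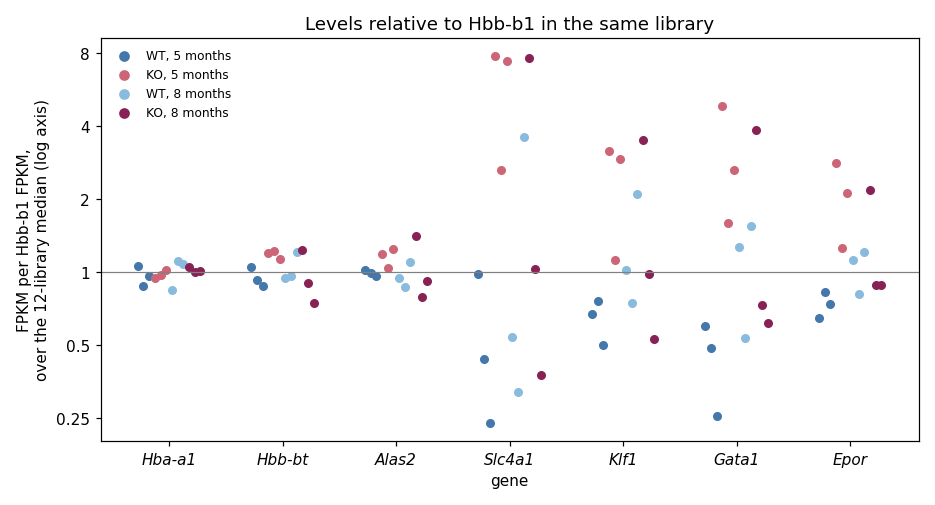
FPKM of each gene divided by that of Hbb-b1 in the same library, over the median of the 12 libraries (log axis), coloured by label and age. Hba-a1 spans 1.32-fold, Hbb-bt 1.65-fold and Alas2 1.77-fold, while Gata1 spans 18.99-fold and Slc4a1 32.5-fold. The levels of Gata1 and Slc4a1 before division lie below 1 FPKM in some libraries.

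Around the lineage, the genes that red cells and their precursors use were read from 7 lists, and in limma 0 genes of any list passed the adjusted threshold in any of the 5 comparisons. The counts at an unadjusted p under 0.05 given below for 5 months stand beside 8.23% of all genes higher in KO at that p, and those of values with no overlap beside 11.3%. In either direction 2955 of 16276 genes had such a p, 1340 of them higher in KO, and counts of lower genes stand beside the rest. The lists, like the members, were chosen with earlier results of these data known. Of the other globin genes, Hbb-bs and Hbb-bt had log2 changes at 5 months of 1.81 ± 0.71 and 1.59 ± 0.70, with adjusted p of 0.232 and 0.269. That of Hbb-b1 was 1.27 ± 0.56. The levels of Hbb-bs and Hbb-b1 cannot be told apart and Hbb-bt is nearly the same in coding sequence, so these are not separate cases. Of the embryonic beta globins, Hbb-bh1 was listed at 0 in all 12 libraries and Hbb-y in 4, with at most 0.725 FPKM (E4). At an unadjusted p under 0.05, 4 of 8 haem synthesis genes were higher in KO and 0 were lower, with a list median of 0.32. Urod and Fech, the most abundant of them, had log2 changes of 0.32 ± 0.07 and 0.32 ± 0.13 (adjusted p of 0.147 and 0.248). Of 12 genes of iron uptake and mitochondrial iron, 1 was higher at that p, a share near that of all genes, and the median was 0.14. The ferritin chains Fth1 and Ftl1 had changes of 0.01 ± 0.13 and 0.25 ± 0.10 (adjusted p of 0.983 and 0.239).

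Of 18 genes of the red cell membrane and its skeleton, 8 were higher and 0 were lower at that p, and the median was 0.50. The 2 most abundant genes of that list, Aqp1 and Tmod1, which other cells express too, had log2 changes of 0.24 ± 0.17 and 0.01 ± 0.16 (adjusted p of 0.463 and 0.991). Of 15 genes of erythroid transcription, 9 were higher and 0 lower at that p, with a median of 0.66. Lmo2 and Ldb1, partners of GATA1 in a complex, had changes of 0.66 ± 0.26 and 0.07 ± 0.08 (adjusted p of 0.233 and 0.697). Of 13 tested enzymes and maturation genes, 6 were higher and the median was 0.28. Carbonic anhydrase 2 (Car2) and the peroxidase Prdx2 had changes of 0.39 ± 0.14 and 0.11 ± 0.08 (adjusted p of 0.221 and 0.484). Of 10 tested genes of erythropoietin signalling, 4 were higher and 1 lower, with a median of 0.25, and the transcription factor Stat5b and its survival target Bcl2l1 had changes of 0.10 ± 0.08 and 0.20 ± 0.11 (adjusted p of 0.566 and 0.343). At 8 months 0 genes of these 7 lists passed an unadjusted p under 0.05, beside 842 of 16276 genes in either direction. The list medians lay between 0.02 and 0.23.

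Markers of other marrow-derived cells were read in the same way, and 0 of them passed the adjusted threshold. Of 16 genes of neutrophils and their precursors, 16 were higher in KO at 5 months, with unadjusted p under 0.05, and had no overlap, with a median change of 4.91, beside 8.23% and 11.3% of all genes. Their summed level was 89.0 to 699 FPKM in WT and 4241 to 23379 FPKM in KO at 5 months, and 714 to 4705 and 924 to 17171 FPKM at 8 months. S100a8 and S100a9, the calcium-binding proteins of neutrophils, had changes of 4.94 ± 1.33 and 4.89 ± 1.30 (adjusted p of 0.172 and 0.17). The protease Elane, made in neutrophil precursors, read 2.38, 3.19 and 0.190 FPKM in WT and 220, 48.1 and 83.1 FPKM in KO.

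Of 14 genes of megakaryocytes and platelets, 13 were higher at that p, and their sum was 51.4 to 59.0 FPKM in WT and 193 to 906 FPKM in KO at 5 months, and 83.9 to 138 and 72.3 to 541 FPKM at 8 months. The platelet chemokines Pf4 and Ppbp had changes of 2.198 ± 0.61 and 4.42 ± 1.01 (adjusted p of 0.174 and 0.147). Of 12 tested B cell genes, 11 were higher, with sums of 35.3 to 44.1 FPKM in WT and 57.9 to 177 FPKM in KO at 5 months, and 42.1 to 104 and 48.8 to 73.2 FPKM at 8 months. Vpreb3 of B cell precursors had a change of 1.94 ± 0.57 (adjusted p = 0.187), and Ebf1, which other cochlear cells express too, one of -0.08 ± 0.06 (adjusted p = 0.508). Of 10 genes of proliferating cells, 10 were higher, and their sum was 12.5 to 18.4 FPKM in WT and 41.2 to 163 FPKM in KO at 5 months, and 14.8 to 67.1 and 17.9 to 135 FPKM at 8 months. Rrm2 and Birc5, used in DNA synthesis and in cell division, had changes of 2.82 ± 0.99 and 2.49 ± 0.86 (adjusted p of 0.214 and 0.21).

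Of 10 genes of the macrophages that recycle haem and iron, 5 were higher and the median was 0.44. Haptoglobin (Hp), which binds free haemoglobin and which neutrophils store too, had a change of 2.99 ± 0.88 (adjusted p = 0.189), and the haem transporter Slc48a1 one of 0.00 ± 0.08 (adjusted p = 0.986). Of 8 tested mast cell and basophil genes, 3 were higher at that p and 4 had a change above 0, with sums of 12.2 to 30.1 FPKM in WT and 22.0 to 45.7 FPKM in KO. The mast cell protease Mcpt4 had a change of -0.88 ± 0.46 and histidine decarboxylase (Hdc) one of 1.49 ± 0.46 (adjusted p of 0.339 and 0.191). Of 10 endothelial genes 0 were higher and 1 lower, and the median was -0.08. Cldn5 and Emcn had changes of -0.23 ± 0.13 and -0.28 ± 0.14 (adjusted p of 0.396 and 0.323). Of 16 genes of cochlear cell types 1 was higher, the median was -0.07, and Coch and Otos had changes of -0.11 ± 0.20 and 0.11 ± 0.23 (adjusted p of 0.8 and 0.84). The part of marrow cells or blood in the levels of the red cell genes was not tested.

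**Figure D4:**
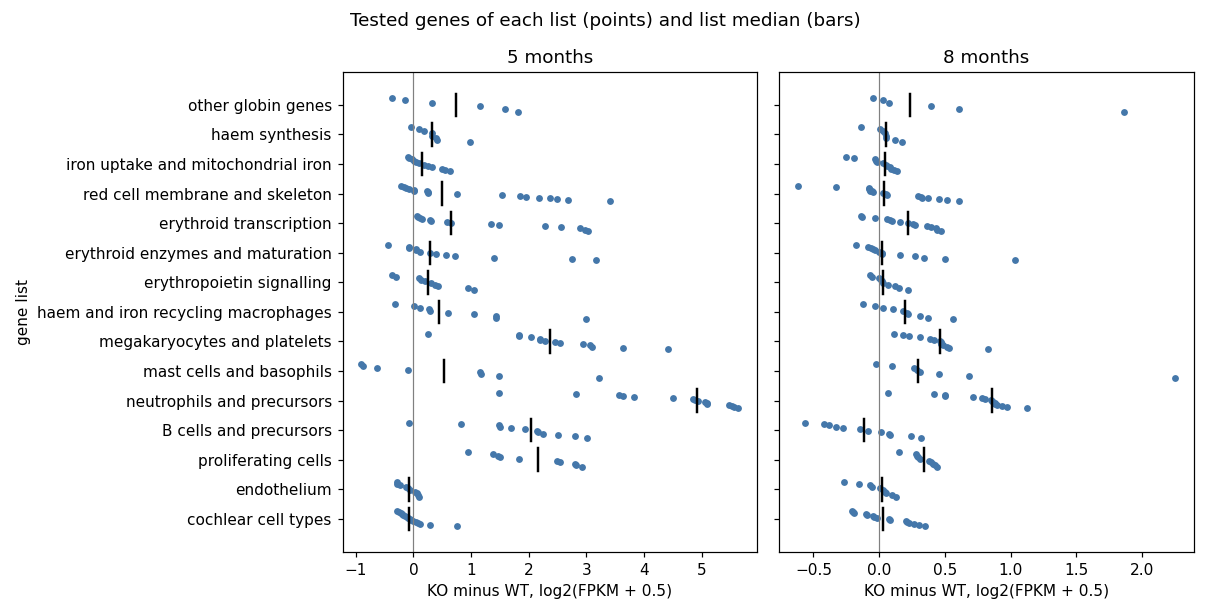
KO minus WT in log2(FPKM + 0.5) for each tested gene of the 15 lists (points) with the list median (bars), at 5 months (left) and 8 months (right, on a narrower axis). At 5 months the medians of neutrophil, platelet, proliferation and B cell genes lie at 4.91, 2.37, 2.16 and 2.04, while those of endothelial and cochlear genes lie at -0.08 and -0.07.

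The libraries also differed in Xist, the RNA of the inactive X chromosome in females. It read 34.9 to 52.4 FPKM in E4, F1, F6 and F27 and at most 0.0935 FPKM in the other 8, so KO at 5 months held 0 such libraries and KO at 8 months 2. Slc4a1 read 0.270 to 2.72 FPKM in these 4 libraries and 0.615 to 46.4 FPKM in the other 8, of which E3, F10 and E1 (0.744, 0.615 and 3.13 FPKM) were as low or nearly so. With the Xist level as a term of the fit, the median change of the 7 genes was 1.597 at 5 months and 0.62 at 8 months, and 0 of 7 passed the adjusted threshold.

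The genes most like the lineage were sought by Pearson's r with the mean standardized log2 profile of the 7 members found other than Epor, over 12 libraries and 15213 genes whose mean reached 1 FPKM. Epor was left out because cells outside the red cell lineage use it. Gata1 was kept, though such cells use it too, so the profile is not that of red cells alone. Among the 10 highest were Ube2l6 (r = 0.981), Isg20 (0.978), Car1 (0.967), Cldn13 (0.967), Bpgm (0.964), Ube2c (0.963), Cdca3 (0.961), Ctse (0.960) and Hbb-bt (0.958). Car1, Bpgm and Hbb-bt were already among the lists above. Ube2c and Cdca3 serve cell division, and Bpgm makes the red cell metabolite that loosens the hold of haemoglobin on oxygen. When Hba-a2, whose values do not measure it, was left out of the profile, 8 of the 10 genes were again among the highest 10. Car1 then came first (r = 0.985), and it read 2.53, 1.53 and 0.604 FPKM in WT and 29.0, 11.9 and 12.8 FPKM in KO at 5 months. At 8 months its values overlapped, with a log2 change of 0.27 ± 1.05 (SE). Genes picked for likeness over these same libraries share the split of the members by that choice.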

How the data were processed

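The authors made 12 stranded polyA libraries from cochlear RNA (how many cochleae went into each is not stated), with reads checked in FastQC 0.10.1, mapped with TopHat2 2.0.10 onto mm9 (with Bowtie 1.0.0 and with SAMtools 0.1.19) and quantified with Cufflinks 2.2.1, per the labels and the study's methods. The values used are FPKM (fragments per kilobase of transcript, scaled to library size), deposited by the authors for every gene in every library. Many values had lost their decimal point, which was placed so that the 3 values of a group average to the authors' group FPKM in their Cuffdiff output. This gave a single placing for 95801 of 95804 pairs of gene and group, 55.2% of values were moved, and 3 genes were left out. The Cuffdiff fold changes and p-values, the gene set reports and the sample correlations were not used. FPKM carry no read numbers, so the depth of each library could not be read.

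A gene entered the test when its mean reached 0.5 FPKM, and all such genes went into 1 limma fit (limma 3.58.1, R 4.3.3) of the 4 groups on log2(FPKM + 0.5), with a variance trend and Benjamini-Hochberg adjustment over all 16276 genes at 0.05. Tables were made in Python 3.11.15 with NumPy 2.4.6, pandas 2.3.3 and SciPy 1.17.1, and figures in Matplotlib 3.10.9. The fit and the placing were tested on simulated data. Members and lists were chosen with earlier results of these data known. Named were all members, genes of the 15 lists that passed the test in any comparison and the 2 most abundant tested genes of each list, and the 10 genes most like the lineage, of which 1 is not reported here. Elane, Hbb-bh1, Hbb-y, Mb and Ngb were named after their values were seen. Alternatives changed the pseudocount, filter, scaling, variance trend, groups, a term for code letter or Xist, or left out a library. Promoters are those of RefSeq (GRCm38.p6), which held 8 of the 11 globin and lineage genes looked up. The Slc4a1 promoter was not analysed here.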

Additional observations from a re-analysis of the deposited data

How the results depend on the processing

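For the 7 genes tested, 0 passed the adjusted threshold in any of the 5 comparisons under every alternative run, and the lowest adjusted p of a member at 5 months was 0.0923 (Gata1). The median change at 5 months was 1.52 to 2.203 with a library left out, and at 8 months it was -0.47 to 0.84. The median difference between ages was -2.34 to -1.15 with a library left out, and the change with age was 0.07 to 1.14 in WT and -1.63 to -0.30 in KO. With the code letter as a term the median change with age in WT was 2.01 in place of 0.72, but all WT libraries of an age share a letter, so this value takes the letter from E7 against F18 and F19 and rests on 1 library. Likewise the change at 5 months with that term is E7 against WT. With the Xist level as a term the median change with age in KO moved from -0.93 to -0.00092. At 8 months the direction of single genes turned. Quantile scaling gave -0.030 for Hbb-b1. With 1 library left out it ran from -0.29 to 0.78 for Hba-a1, -0.29 to 0.71 for Hbb-b1, -0.47 to 0.84 for Alas2, -0.74 to 2.11 for Slc4a1, -0.76 to 1.01 for Klf1, -0.64 to 0.96 for Gata1 and -0.40 to 0.79 for Epor, lowest without F5 and highest without F12. Leaving out E7 with F5, a pair chosen after seeing the data, gave the same values as leaving out F5 (-0.2902 for Hba-a1, -0.2884 for Hbb-b1). The direction also turned without F10 for all 7 genes and without F1 for Hba-a1, Hbb-b1, Alas2 and Klf1. The genes called among all tested numbered 11 at 5 months, and 4 to 18 under the alternatives, 2 at 8 months (2 to 6), 1 for the difference (0 to 13), 2 with age in WT (1 to 12) and 0 with age in KO (0 to 4). The cause of these moves was not tested. No paired analysis was possible because the animal codes of the libraries are not shared between groups. Read depth is unknown, so levels below 1 FPKM carry an error that cannot be given.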

Other observations

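Myoglobin (Mb), the oxygen store of muscle, is a globin outside the red cell. Its log2 change was 0.33 ± 1.49 (SE) at 5 months and 1.86 ± 1.49 at 8 months, with limma adjusted p of 0.932 and 0.974. Single libraries stood high, E3 at 138 FPKM and F18 at 85.0 FPKM, and the 5-month means were 48.5 FPKM in WT and 35.5 FPKM in KO. Neuroglobin (Ngb), a globin of neurons, had a log2 change of -0.37 ± 0.31 at 5 months (adjusted p = 0.555). Neither was tested for a cause.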
